A study of Mus musculus with 22 samples.

Results

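The genes of the insulin-like growth factor (IGF) binding proteins, Igfbp1 to Igfbp7, and the gene of the growth factor itself, Igf1, were examined in lists of chromatin immunoprecipitation sequencing (ChIP-seq) regions from MC3T3-E1 cells. This mouse line of osteoblast precursors mineralizes its matrix in culture. All regions whose centre lay within 100 kb of an annotated start of these 8 genes were taken, on genome build mm9. The genes are 8 of 22350 protein-coding genes, and 560 of the 360258 regions in the 22 lists fell near them, 253 in the 12 transcription factor lists and 307 in the 10 histone lists. Undifferentiated cells were compared with cells kept for 15 days in ascorbic acid and glycerol-2-phosphate, here called differentiated. Both were given 100 nM calcitriol, the hormonal form of vitamin D, or ethanol vehicle for 3 h. The lists cover the vitamin D receptor (VDR) and the retinoid X receptor (RXR) with vehicle and with calcitriol in each state. C/EBPβ, RUNX2 and 5 histone modifications were covered with calcitriol only, and their vehicle counterparts were not analysed here. All cultures were of passages 5 to 12 of this single line. The differentiated cultures were also homogenized and spun through sucrose to clear the mineral, so culture state and preparation cannot be told apart.

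Each group is represented by 1 list, made of regions common to the authors' replicates. No list gives a spread between replicates, and no difference below carries a replicate test. The files hold no read counts, so depth is unknown, and a site that is missing from a list was not called rather than shown to be unbound. The transcription factor lists held 274 to 17950 regions and the histone lists 6983 to 53858. H3K4me3, a mark of promoters, covered a start of 4 of 7 osteoblast markers in both states (Runx2, Sp7, Col1a1, Col1a2). It covered no start of Alpl, Bglap or Ibsp in either state. Of all coding genes it covered a start of 35% in undifferentiated and 42.3% in differentiated cells. It covered none of 4 adipocyte, 3 muscle or 4 blood markers. Of 4 chondrocyte markers it covered Col2a1 and Sox9 in undifferentiated cells and Sox9 in differentiated cells.

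IGFs act on cells through the IGF receptor, and the binding proteins hold most of the circulating and local IGF, keeping it from the receptor or releasing it there. Osteoblasts secrete several of them and store IGF in bone matrix. VDR binds DNA with RXR as its partner, mostly at DR3 elements, which are direct repeats of a short half-site with a 3 bp spacer. RUNX2 is the factor that sets the osteoblast lineage, and C/EBPβ acts in osteoblasts, fat cells and other cell types. Igfbp2 and Igfbp5 are neighbours with outermost starts 50.38 kb apart, and Igfbp1 and Igfbp3 with outermost starts 16.14 kb apart. A region near 2 members was counted once in totals and for each gene in its own count.

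The VDR sites that carry the elements most directly tied to the receptor are shown first. A DR3 with at most 1 mismatch was present in 4 of the 22 VDR sites near the 8 genes in undifferentiated cells with calcitriol. All 4 lay around Igfbp2 and Igfbp5, and 2 of them matched the consensus in every position. Distances are from the nearest annotated start of the gene in kb, negative when upstream. Each sequence is the whole 201 bp region of the undifferentiated calcitriol VDR list on the plus strand of mm9 (NCBIM37), 5′ to 3′, with the DR3 match in capitals, for 3 of the 4.
Igfbp5 at -40.1 kb, chr1:72961503-72961703, minus strand match: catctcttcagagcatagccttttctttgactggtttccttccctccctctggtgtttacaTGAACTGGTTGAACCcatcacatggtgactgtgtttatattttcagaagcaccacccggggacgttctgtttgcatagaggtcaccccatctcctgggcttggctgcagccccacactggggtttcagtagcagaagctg
Igfbp2 at -85.9 kb, chr1:72785028-72785228, minus strand match: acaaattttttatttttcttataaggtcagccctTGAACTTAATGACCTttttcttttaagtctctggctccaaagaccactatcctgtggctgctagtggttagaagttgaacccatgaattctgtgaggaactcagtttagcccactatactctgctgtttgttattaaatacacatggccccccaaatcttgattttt
Igfbp5 at -92.8 kb, chr1:73014169-73014369, plus strand match: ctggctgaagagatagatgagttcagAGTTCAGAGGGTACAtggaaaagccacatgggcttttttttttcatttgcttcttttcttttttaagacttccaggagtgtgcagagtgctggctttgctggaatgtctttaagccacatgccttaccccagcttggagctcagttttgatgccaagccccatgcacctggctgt

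The elements at -40.1 kb of Igfbp5 and -85.9 kb of Igfbp2 matched without a mismatch, and that at -92.8 kb of Igfbp5 had 1 mismatch. These 3 sites are intergenic in the annotation. The nearest coding start is that of Igfbp5 for the site at -40.1 kb, Tnp1 for the site at -92.8 kb and Rpl37a for the site at -85.9 kb. The share of sites with a DR3, 18.18% (exact Clopper-Pearson 95% interval 5.187 to 40.28%), stood beside 14.79% of all 7000 VDR sites in that list. In flanking windows of 200 bp placed 2 kb to either side, 1 of 44 held a match. The element centres of these 3 lay 32, 59 and 67 bp from the site centres, and a window of 100 bp around the centre held 1 of the 4 (4.545% of sites). Without a mismatch allowed the share was 9.091%, and without the sites of Igfbp4, none of which held a DR3, it was 30.77%. These intervals cover the counting of sites only.

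VDR sites near the family were listed mainly with calcitriol in undifferentiated cells. With vehicle the VDR list held 2 sites near the 8 genes, and with calcitriol it held 22, of which 20 had no counterpart with vehicle. The lists themselves differed in length, with 937 and 7000 regions. The 2 sites shared with vehicle were 9.091% of the 22 (95% interval 1.121 to 29.16%), beside 11.23% of the whole calcitriol list. Among sites within 50 kb the share was 25.0%, and among those whose nearest coding start is a member's it was 20%. Over the genes, Igfbp2 had 1 site with vehicle and 9 with calcitriol, Igfbp4 had 1 and 9, and Igfbp5 had 1 and 8. Igf1 had 0 and 2, Igfbp6 had 0 and 1, and Igfbp1, Igfbp3 and Igfbp7 had 0 in both. The pair Igfbp2 and Igfbp5 shared most of its sites, with 10 in all. At least 1 VDR site was thus near 3 of the 8 genes with vehicle, where 15.7% of all coding genes had one, and near 5 of 8 with calcitriol, where 40.8% had one. Few genes had as many sites: 99.5% of coding genes had fewer than the 9 of Igfbp2 or Igfbp4, and 99.25% had fewer than the 8 of Igfbp5. The 2 sites of Igf1 exceeded the count of 79.83% of coding genes and the 1 site of Igfbp6 that of 59.19%.

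In differentiated cells the VDR list with vehicle held no site near any of the 8 genes, where 6.13% of coding genes had one. With calcitriol it held 4 sites, near 3 of the 8 genes, where 12.1% of coding genes had one. Igfbp4 had 2 of them, and the other 2 were upstream of Igfbp5, 1 of which is also in reach of Igfbp2. Igf1 and Igfbp6, which each had VDR sites in undifferentiated cells, had 0. Of the 22 undifferentiated sites 3 (13.64%, 95% interval 2.906 to 34.91%) were kept in the differentiated list, beside 11.34% of all sites of that list, a share that lies inside the interval. The differentiated VDR list was itself much shorter, with 871 regions used.

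**Figure D1:**
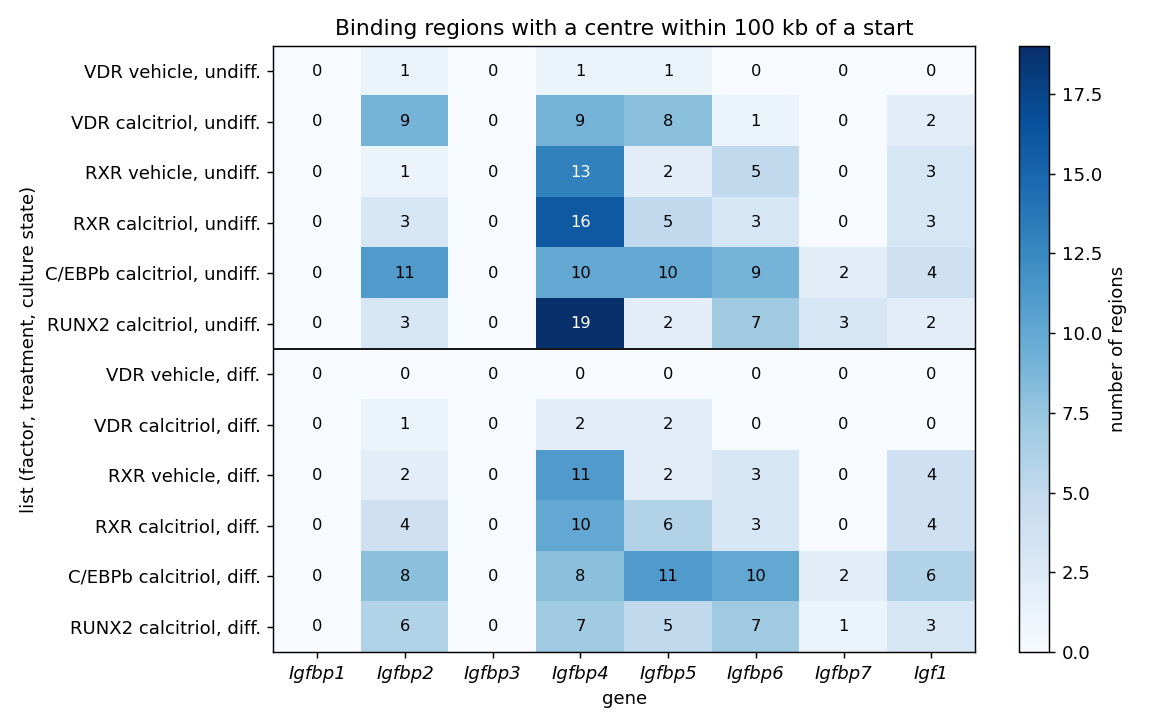
Number of binding regions with a centre within 100 kb of a start, for the 8 genes (columns) in the 12 transcription factor lists (rows, undifferentiated above the line and differentiated below), with darker blue for more regions. The columns of Igfbp1 and Igfbp3 are 0 throughout, Igfbp4 holds the highest count (19, RUNX2 in undifferentiated cells), and VDR counts are highest with calcitriol in undifferentiated cells.

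Igfbp5 encodes a binding protein that attaches to bone matrix and is among the most abundant of the family in bone, and Igfbp2 lies next to it in tail-to-tail orientation. The upstream site of Igfbp5 at -40.1 kb, with the exact DR3, was the most constant VDR site of the pair. VDR was called there with vehicle and with calcitriol in undifferentiated cells, and with calcitriol in differentiated cells. RXR was called there with calcitriol in both states and with vehicle only in differentiated cells. C/EBPβ was listed there in undifferentiated cells and RUNX2 in differentiated cells, each in 1 state only. H4K5Ac, H3K9Ac and H3K4me1, marks of active or enhancer chromatin, covered it in both states.

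The site at -92.8 kb of Igfbp5 was also kept, at chr1:73014118-73014318 in the differentiated list. VDR and RXR were called there with calcitriol in both states and in no vehicle list. H3K9Ac covered it in differentiated cells only. A C/EBPβ site of differentiated cells overlapped the undifferentiated VDR region there. The exact DR3 site at -85.9 kb of Igfbp2 had none of RXR, C/EBPβ or RUNX2 in either state and was not kept. The matches in the kept sites lay closer to the centres in the differentiated list, 7 bp at -40.1 kb and 16 bp at -92.8 kb.

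Close to the Igfbp5 promoter, VDR sites at -3.92 kb (chr1:72925283-72925483) and -4.24 kb (chr1:72925593-72925793) were called with calcitriol in undifferentiated cells. The first, the nearest VDR site to an Igfbp5 start, overlapped RXR with calcitriol in both states and no RXR site with vehicle. The site at -4.24 kb overlapped RXR in all 4 RXR lists and C/EBPβ and RUNX2 in both states, while VDR was called there in 1 list. It held a RUNX match on the minus strand. Both sites were absent from the differentiated VDR list although RXR was still called at both. Beyond them, C/EBPβ was called at -0.008 kb, across the Igfbp5 start, in differentiated cells only.

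Igfbp2 encodes a binding protein that osteoblasts also secrete. Its nearest VDR site lay in an intron, at -9.0 kb of an internal start (chr1:72886174-72886374), and was called with calcitriol in undifferentiated cells only. RXR and RUNX2 were absent from it in undifferentiated cells and present with calcitriol in differentiated cells, when VDR was not called. Of its upstream sites, those at -45.6 and -85.9 kb had no partner, and those at -43.5 and -94.3 kb overlapped C/EBPβ only.

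Across the pair, C/EBPβ sites numbered 12 in undifferentiated and 11 in differentiated cells, of which 6 were shared. RUNX2 sites numbered 3 and 6, with all 3 kept. RXR sites numbered 2 with vehicle and 5 with calcitriol in undifferentiated cells and 2 and 6 in differentiated cells, and in neither state was a vehicle site missing with calcitriol. In the differentiated calcitriol list all 5 undifferentiated RXR sites were present with 1 more.

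**Figure D2:**
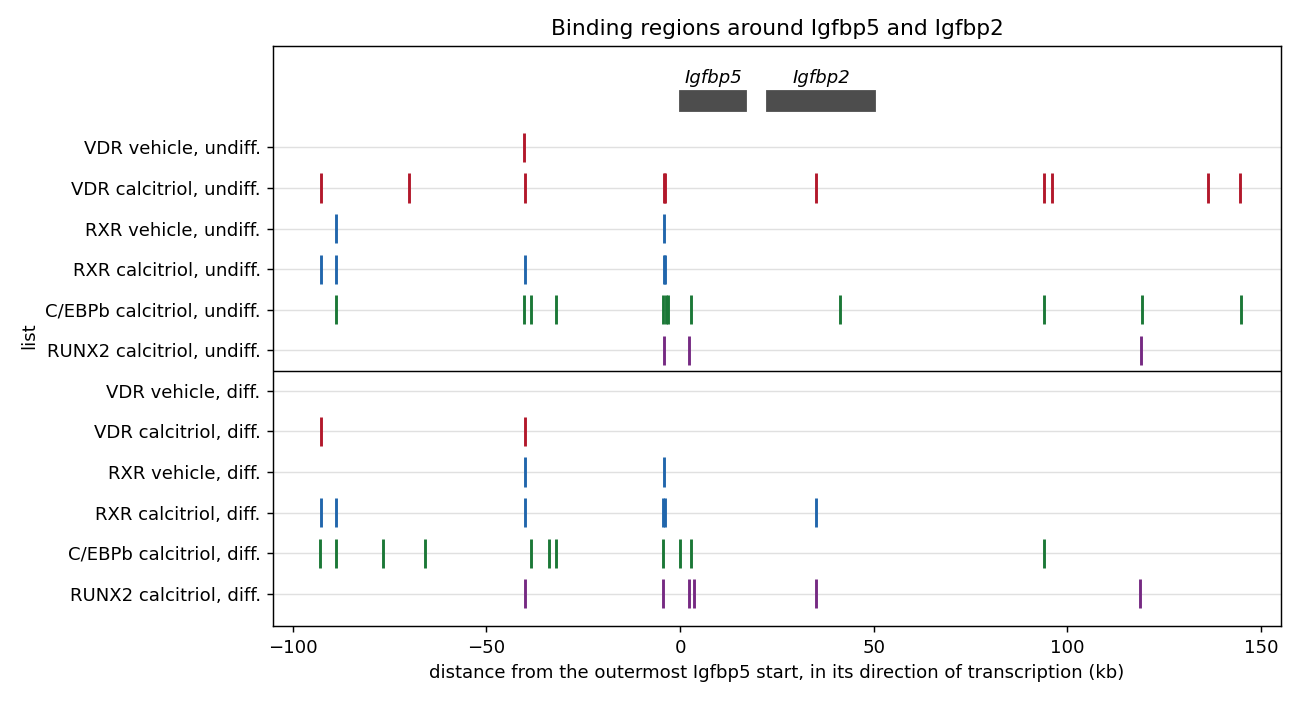
Positions of the regions in reach of Igfbp2 or Igfbp5 in the 12 transcription factor lists (rows), as distance in kb from the outermost Igfbp5 start in its direction of transcription, so that Igfbp2, on the other strand, lies to the right. Each tick is 1 region and grey boxes are the gene bodies. VDR ticks at -40.1 and -92.8 kb appear in both states, whereas the VDR ticks to the right of the Igfbp5 start appear in undifferentiated cells only.

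Igfbp4 encodes a binding protein that inhibits IGF until the protease PAPP-A cleaves it. It lay among the densest sets of sites. The RXR counts were 13 with vehicle and 16 with calcitriol in undifferentiated cells, and 11 and 10 in differentiated cells. Between 99.42 and 99.92% of coding genes had fewer sites in each of these lists. RUNX2 had 19 sites in undifferentiated cells, more than 99.97% of coding genes, and 7 in differentiated cells, with 13 lost and 1 new. The whole RUNX2 list was also shorter in differentiated cells, with 7919 regions against 12012. Of the 12012 undifferentiated RUNX2 sites 43.15% were kept. C/EBPβ had 10 and 8 sites, and all 8 were shared. VDR had 9 sites with calcitriol in undifferentiated cells and 2 in differentiated cells. Rara, Top2a, Tns4 and Gjd3 also have starts within 100 kb of those of Igfbp4.

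A VDR site lay 95 bp before an internal Igfbp4 start, in an intron (chr11:98908430-98908630). It was the 1 VDR site of the 22 within 1 kb of a member's start, and 1 of the 2 also called with vehicle. RXR was called there in all 4 RXR lists and C/EBPβ in both states. VDR was not called there in differentiated cells with either treatment. All 5 histone marks covered it in undifferentiated cells. It held no DR3, RUNX or C/EBP match.

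The other 8 VDR sites of Igfbp4 lay between 52.7 and 92.2 kb downstream, where the nearest coding start is that of Tns4 or Ccr7. The site at 66.2 kb (chr11:98974695-98974895) was kept in differentiated cells and overlapped RXR in all 4 RXR lists and C/EBPβ and RUNX2 in both states. It held no match to the motifs searched. H3K9Ac covered it in differentiated cells only. The sites at 55.7, 66.2 and 77.5 kb overlapped RUNX2 in both states, while those at 91.9 and 92.2 kb overlapped it in undifferentiated cells only.

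A further VDR site, at 94.5 kb, was listed in differentiated cells only (chr11:99002992-99003192), with Ccr7 as the nearest coding gene. RXR with calcitriol and C/EBPβ were already called there in undifferentiated cells without VDR. In differentiated cells RXR was called with both treatments, together with C/EBPβ and RUNX2. It is shown because VDR appeared there in the opposite direction to the other sites, and it held 4 C/EBP matches, in capitals. The RXR site at 52.8 kb, which overlaps the VDR site at 52.7 kb, is shown because it holds a DR3 with 1 mismatch on the minus strand, in capitals, that lies outside the window of the VDR site. Both are plus strand sequence of mm9, 5′ to 3′.
Igfbp4 at 94.5 kb, differentiated VDR site, chr11:99002992-99003192: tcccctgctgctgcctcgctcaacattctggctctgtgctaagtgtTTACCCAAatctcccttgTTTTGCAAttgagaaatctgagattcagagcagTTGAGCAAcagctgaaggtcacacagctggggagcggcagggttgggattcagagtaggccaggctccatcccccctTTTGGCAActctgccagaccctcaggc
Igfbp4 at 52.8 kb, undifferentiated RXR site with calcitriol, chr11:98961371-98961571: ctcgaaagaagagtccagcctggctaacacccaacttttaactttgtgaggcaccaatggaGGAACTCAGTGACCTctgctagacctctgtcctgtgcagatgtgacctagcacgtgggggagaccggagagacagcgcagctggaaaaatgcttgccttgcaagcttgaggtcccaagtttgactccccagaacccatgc

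RXR was called at 52.8 kb with calcitriol in both states and with vehicle in neither. At the 94.5 kb site the vehicle RXR list held a region in differentiated cells and none in undifferentiated cells.

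**Figure D3:**
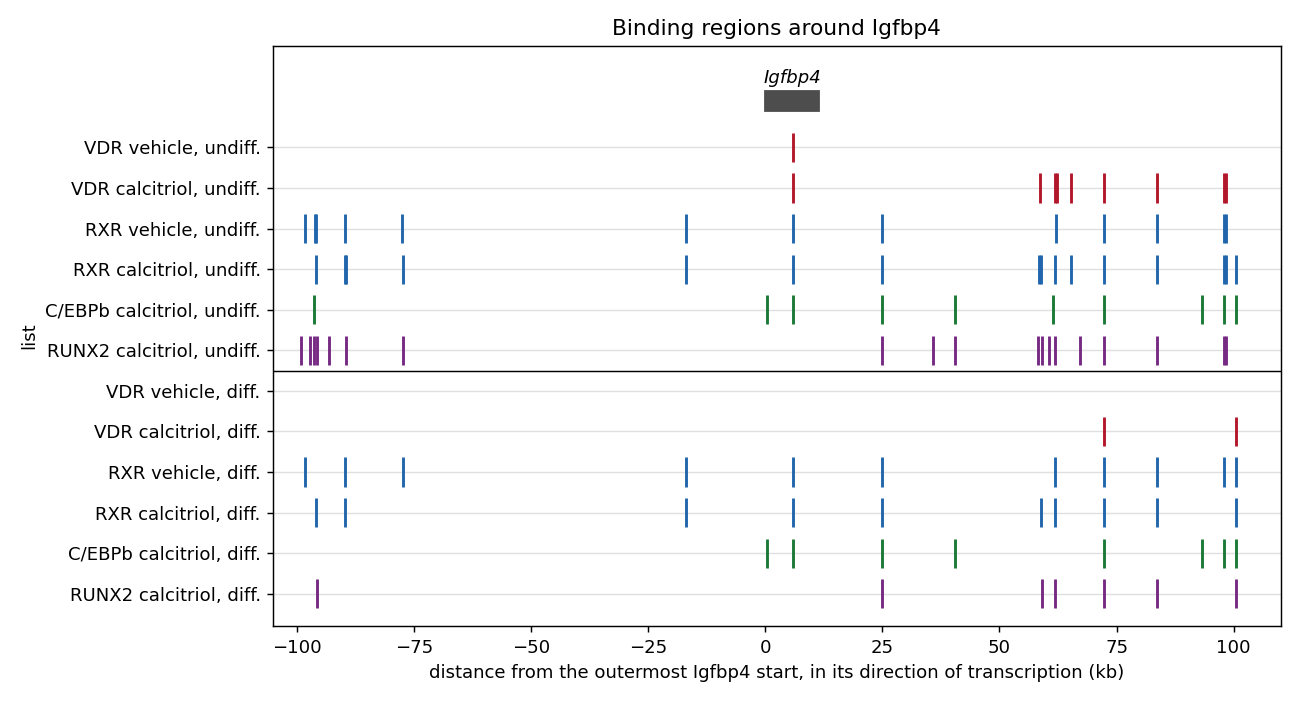
Positions of the regions near Igfbp4 in the 12 transcription factor lists (rows), as distance in kb from its outermost start, with each tick 1 region and the gene body in grey. Distances in the text are from the nearest of the 4 annotated starts and are therefore shorter for the downstream sites. The RUNX2 ticks on the left, in an intron of Rara, are mostly absent in differentiated cells.

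Igf1, which encodes the growth factor, had its VDR sites in a far upstream group with no other coding start within 100 kb of the gene's own starts. Both sites, at -84.9 kb and -65.7 kb, were called with calcitriol in undifferentiated cells and in no other VDR list. RXR was called at both in all 4 RXR lists, including those of cells in which VDR was not called there. RUNX2 was called at both in undifferentiated cells and at -65.7 kb in differentiated cells. H3K9Ac covered both in differentiated cells only, when VDR was not called. Each held 1 RUNX match, in capitals, on the minus strand at -84.9 kb and on the plus strand at -65.7 kb, and neither held a DR3. They are shown because they are the 2 VDR sites of Igf1, from the undifferentiated calcitriol list, as plus strand mm9 sequence.
Igf1 at -84.9 kb, chr10:87236026-87236226: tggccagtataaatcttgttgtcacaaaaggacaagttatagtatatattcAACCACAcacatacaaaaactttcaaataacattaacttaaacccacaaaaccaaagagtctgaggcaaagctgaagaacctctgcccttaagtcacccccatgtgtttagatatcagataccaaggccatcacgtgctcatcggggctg
Igf1 at -65.7 kb, chr10:87255182-87255382: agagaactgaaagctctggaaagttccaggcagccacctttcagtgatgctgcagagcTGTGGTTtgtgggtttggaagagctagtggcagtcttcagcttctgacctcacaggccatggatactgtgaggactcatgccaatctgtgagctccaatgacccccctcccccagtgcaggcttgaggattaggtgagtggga

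RXR sites of Igf1 numbered 3 with either treatment in undifferentiated cells and 4 with either treatment in differentiated cells, the same positions with and without hormone. C/EBPβ sites numbered 4 and 6, with 2 shared. In undifferentiated cells 3 of them lay in an intron, the farthest at 18.9 kb, and in differentiated cells new intronic sites were listed at 65.2 and 65.9 kb. RUNX2 sites numbered 2 and 3, and the differentiated list had 1 at -3.25 kb, the nearest to an Igf1 start.

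**Figure D4:**
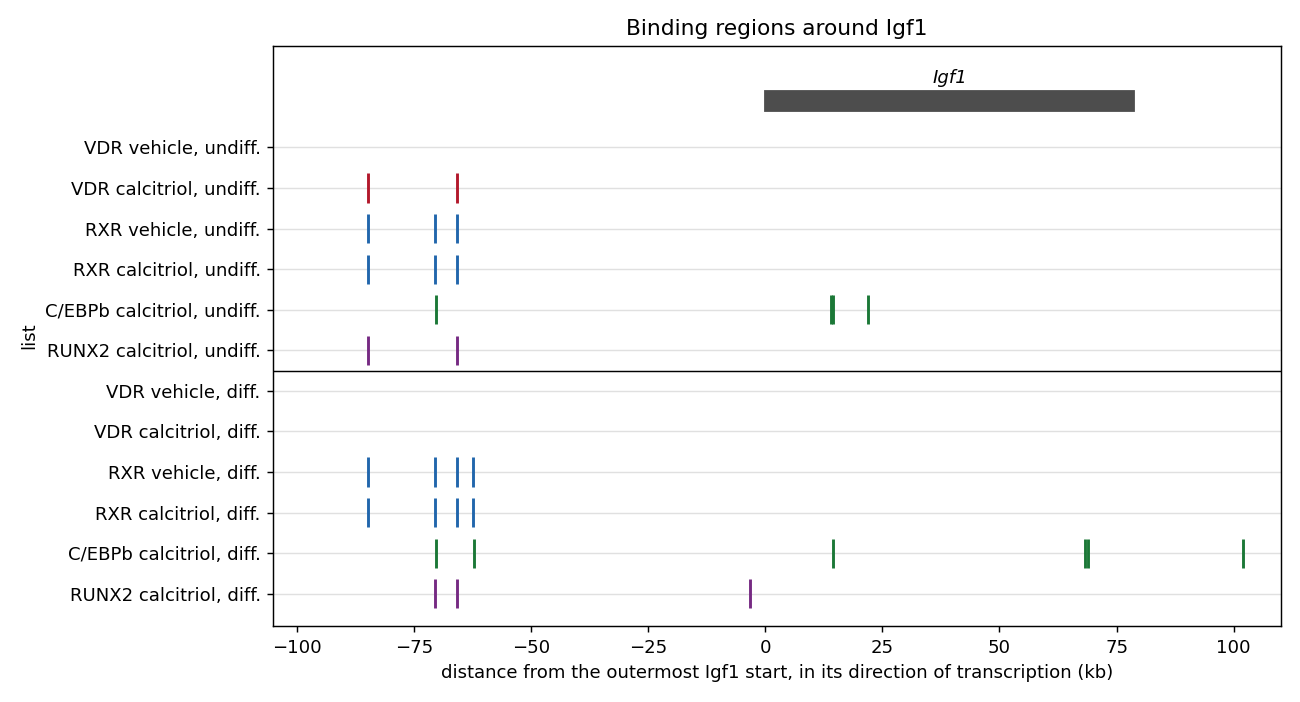
Positions of the regions near Igf1 in the 12 transcription factor lists (rows), as distance in kb from the outermost start, with each tick 1 region and the gene body in grey. The same 3 upstream RXR ticks stand in all 4 RXR lists, with 1 more in differentiated cells, and the 2 VDR ticks appear in 1 list only.

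Igfbp6 encodes a binding protein that prefers IGF-II. Its only VDR site, at -40.0 kb (chr15:101934681-101934881), lies in an intron of Tenc1 and was called with calcitriol in undifferentiated cells. RXR was called there in all 4 lists and C/EBPβ in both states. RXR sites near Igfbp6 numbered 5 with vehicle and 3 with calcitriol in undifferentiated cells, with 3 vacated and 1 gained, and 3 with each treatment in differentiated cells. C/EBPβ had 9 and 10 sites with 8 shared, including 1 at -0.992 kb of the start. RUNX2 had 7 in each state with 4 shared, and a RUNX2 site inside the Igfbp6 gene body was listed in differentiated cells only. Eif4b, Tenc1, Soat2, Csad, Zfp740, Itgb7, Rarg and Spryd3 also have starts within reach of Igfbp6.

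Igfbp7 encodes the family member with low affinity for IGFs. It had no VDR or RXR site in any list. C/EBPβ was called at 2 positions, in introns at 1.6 and 50.0 kb, and both were present in each state. RUNX2 had 3 sites in undifferentiated cells and 1 in differentiated cells, the intronic site at 40.1 kb.

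Igfbp1, known as an insulin-regulated product of liver, and Igfbp3, the main carrier of IGF in serum, had no region in any of the 12 transcription factor lists as used here. Whether these zeros reflect the cells, or rows left out of the lists that were analysed, could not be told. The nearest listed binding region was at least 571.7 kb to the left and 1224 kb to the right of the pair. Of the histone lists, only H3K4me1 in differentiated cells had regions in reach, 1 of them inside the Igfbp3 body. That region covered 28.94% of the body.

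RXR, C/EBPβ and RUNX2 counts over all 8 genes were compared with those of other coding genes. RXR had a site near 5 of the 8 genes in each of its lists, where 44.2% (vehicle) and 43.8% (calcitriol) of coding genes had one in undifferentiated cells and 33.5% and 43.7% in differentiated cells. C/EBPβ had one near 6 of 8 in both states, where 65.8% of coding genes had one in undifferentiated and 61.1% in differentiated cells. RUNX2 also had one near 6 of 8 in both states, where 59.6% and 46.5% had one. With so few genes, none of these shares can be set apart from the background, and none was tested. Igfbp2 and Igfbp5, neighbours that share sites, were each counted.

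Most of the undifferentiated calcitriol RXR sites near the family were also listed with vehicle, and most were also listed in differentiated cells. Fewer met both, as 11 of the 27 (40.74%, 95% interval 22.39 to 61.2%) overlapped a site in each of the other RXR lists, beside 34.28% of that whole list. The RXR lists held 23 sites with vehicle and 27 with calcitriol in undifferentiated cells, of which 17 were shared, 10 were present with calcitriol only and 6 with vehicle only. The shared sites were 62.96% of the calcitriol sites (95% interval 42.37 to 80.6%), beside 69.25% of the whole list. In differentiated cells they held 20 and 23, of which 17 were shared, 6 were present with calcitriol only and 3 with vehicle only. There the shared sites were 73.91% of the calcitriol sites (95% interval 51.59 to 89.77%), beside 52.58% of the whole list. Of the 27 undifferentiated calcitriol sites 20 were kept in differentiated cells (74.07%, 95% interval 53.72 to 88.89%), beside 61.64% of all sites of that list. C/EBPβ kept 26 of 37 (70.27%, 95% interval 53.02 to 84.13%; 64.68% of its whole list) and RUNX2 kept 15 of 34 (44.12%, 95% interval 27.19 to 62.11%; 43.15% of its whole list). The whole-list shares lie inside each of these intervals. Of the 7 RXR sites not kept 6 were near Igfbp4, and without that gene 90.91% were kept. Counted from the 23 differentiated calcitriol RXR sites, 20 were shared between states (86.96%, 95% interval 66.41 to 97.22%), beside 57.67% of the whole list. With vehicle 16 of 23 undifferentiated RXR sites were kept (69.57%, 95% interval 47.08 to 86.79%), beside 41.73%. Both of these whole-list shares lie below the interval, which treats neighbouring sites as independent. Igfbp4 alone held 10 of the 20 shared calcitriol sites and 10 of the 16 shared vehicle sites. Neither share was recounted without Igfbp4, and neither was tested. Of the 20 differentiated vehicle sites 16 were shared (80.0%, 95% interval 56.34 to 94.27%), beside 67.64%, inside the interval.

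At the 22 undifferentiated VDR sites, RXR overlapped 15 (68.18%, 95% interval 45.13 to 86.14%), beside 60.0% of all VDR sites in the list. C/EBPβ and RUNX2 each overlapped 8 (36.36%, 95% interval 17.2 to 59.34%), beside 44.13% and 53.96% of all. All 3 partners met at 3 sites, and 5 sites (22.73%, beside 20.26% of all) had none of them. Among the 8 VDR sites within 50 kb of a start C/EBPβ overlapped 62.5% and RUNX2 12.5%. Without the sites of Igfbp4 RUNX2 overlapped 23.08%, and with centres within 500 bp counted as shared C/EBPβ and RUNX2 each met 50.0% of the 22. The 4 differentiated VDR sites all overlapped RXR (95% interval 39.76 to 100.0%), beside 66.02% of all 871 in that list. RUNX2 overlapped 3 of them (75.0%, 95% interval 19.41 to 99.37%), beside 33.52% of all. Both whole-list shares lie inside these intervals.

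Of the 19 undifferentiated VDR sites not kept, RXR was still called with calcitriol in differentiated cells at 10 (52.63%, beside 52.3% of all such sites). H4K5Ac and H3K4me1 covered all 19 in differentiated cells, beside 94.38% and 96.18% of all such sites. These marks were thus listed at the members' former VDR sites, as at most of the list. In differentiated cells H4K5Ac and H3K4me1 also covered 77.71% and 62.89% of all sequence within 100 kb of the Igfbp2 starts. Around Igfbp4 they covered 74.91% and 70.32%.

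H3K9Ac covered 15 of the 22 VDR sites in undifferentiated cells (68.18%, beside 60.56% of the whole VDR list) and 18 in differentiated cells (81.82%, beside 74.34%). The share was thus higher in differentiated cells over the whole list too. Of the 7 sites without it in undifferentiated cells 5 had it in differentiated cells, beside 40.57% of such sites in the whole list. Among these were the site at -92.8 kb of Igfbp5, both Igf1 sites and the 66.2 kb site of Igfbp4. In the other direction, 2 of the 15 sites with it in undifferentiated cells lacked it in differentiated cells (13.33%). The share was 3.657% of such sites in the whole list. These 2 were neighbouring sites upstream of Igfbp2, at -45.6 and -43.5 kb. H4K5Ac and H3K4me1 covered all 22 sites in both states, beside 97.56% and 96.27% of all VDR sites in undifferentiated cells. In those cells the 2 marks also covered much of the sequence within 100 kb of the starts. The shares were 95.74% and 59.68% at Igfbp2, 75.96% and 66.8% at Igfbp4, and 46.0% and 61.38% at Igfbp6. H3K4me3 covered 4 of the 22 in undifferentiated cells (18.18%, beside 19.99% of all) and 1 in differentiated cells (4.545%, 95% interval 0.115 to 22.84%, beside 14.57% of all).

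RUNX motifs (TGNGGTN with T or C at each N, either strand, 200 bp around the centre) were found in 24 of the 34 undifferentiated RUNX2 sites (70.59%, 95% interval 52.52 to 84.9%), beside 52.4% of all RUNX2 sites. The whole-list share falls just below that interval. Of the 34 sites 19 were near Igfbp4. The interval treats such neighbouring sites as independent, so it cannot set the family apart from the list, and no test was made. In differentiated cells 16 of 24 held one (66.67%, 95% interval 44.68 to 84.37%, beside 55.87% of all). C/EBP motifs (TTACNNAA or TTGCNNAA, either strand) were found in 17 of 37 undifferentiated C/EBPβ sites (45.95%) and 19 of 37 differentiated ones (51.35%), beside 53.24% and 56.45% of all. At the VDR sites a RUNX motif was present in 6 of 22 (27.27%, beside 26.94% of all), including both Igf1 sites and 1 each at Igfbp2 and Igfbp5. The motif letters were allowed to overlap other motifs, and a match is a description of the sequence only.

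Most VDR sites lay away from the members' own starts, with 1 of the 22 undifferentiated calcitriol sites within 1 kb of one. Distances to the promoters of other genes in reach were not counted. Of the 22 undifferentiated VDR sites 19 were intergenic and 3 intronic. In undifferentiated cells with calcitriol 9 of 37 C/EBPβ sites lay within a member's gene body, as did 3 of 34 RUNX2, 2 of 22 VDR and 1 of 27 RXR sites. For 10 of the 22 VDR sites the nearest coding start belonged to a member. The same held for 17 of 37 C/EBPβ, 7 of 27 RXR (calcitriol) and 5 of 34 RUNX2 sites in undifferentiated cells.

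Histone marks at the starts separated the family. H4K5Ac, H3K9Ac and H3K4me1 covered a start of 6 of the 8 genes in both states, all but Igfbp1 and Igfbp3. Of all coding genes, H4K5Ac covered a start of 53.5% in undifferentiated and 53.3% in differentiated cells, H3K9Ac of 49.6% and 51.4%, and H3K4me1 of 52.7% and 55.4%. H3K4me3 covered a start of Igfbp4, Igfbp5 and Igf1 in undifferentiated cells, where 35% of coding genes had it. In differentiated cells it also covered Igfbp2 and Igfbp6, 5 of 8 in all, where 42.3% had it. In neither state did it cover a start of Igfbp7.

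The new H3K4me3 regions were narrow, 1.253 kb at Igfbp2 and 1.784 kb at Igfbp6. In undifferentiated cells the nearest H3K4me3 region had been 43.2 kb from the outermost Igfbp2 start and 5.55 kb from that of Igfbp6. The Igfbp2 region covered an internal start and ended 0.271 kb from the outermost one. With the lowest 25% of scores left out H3K4me3 covered 3 of the 8 genes in differentiated cells. With outermost starts only it also covered 3, which were Igfbp4, Igfbp5 and Igfbp6. The Igf1 region in differentiated cells lay 0.145 kb from the outermost Igf1 start. At the genes marked in both states the widest region measured 13.6 kb in undifferentiated and 4.831 kb in differentiated cells at Igfbp5, 9.885 and 3.861 kb at Igfbp4, and 14.52 and 3.527 kb at Igf1. The narrower regions were not particular to these genes. Of the 7530 coding genes marked in both states 98.29% had a narrower region in the differentiated list, and the median width was 5.472 kb in undifferentiated and 2.526 kb in differentiated cells. The 3 member regions were wider than the median in both states.

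H3K36me3, a mark laid down over transcribed gene bodies, covered a start of Igfbp2, Igfbp4 and Igf1 in undifferentiated cells, where 28% of coding genes had one covered, and of Igfbp4 and Igf1 in differentiated cells, where 25.7% had. These were internal starts. Over the gene bodies, coverage at Igfbp4 was 97.48% in undifferentiated and 91.61% in differentiated cells. It was 86.52 and 87.17% at Igfbp5, and 97.69 and 96.87% at Igf1. Over the Igfbp2 body, coverage was 88.79% in undifferentiated cells and 0% in differentiated cells. Among the 9261 coding genes with at least 50% of the body covered in undifferentiated cells, 1.695% had none in differentiated cells. Igfbp6 had 74.27 and 28.47% and Igfbp7 had 25.32 and 5.204%. The median over all coding genes was 2.384% in undifferentiated and 0% in differentiated cells.

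Igfbp2 thus had H3K4me3 listed at an internal start in differentiated cells while its H3K36me3 region was absent, and its neighbour Igfbp5 had H3K36me3 over nearly the same share of its body in both states. H3K9Ac over the Igfbp5 body covered 31.17% in undifferentiated and 80.32% in differentiated cells. Over the Igfbp2 body it covered 29.32 and 28.29%.

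**Figure D5:**
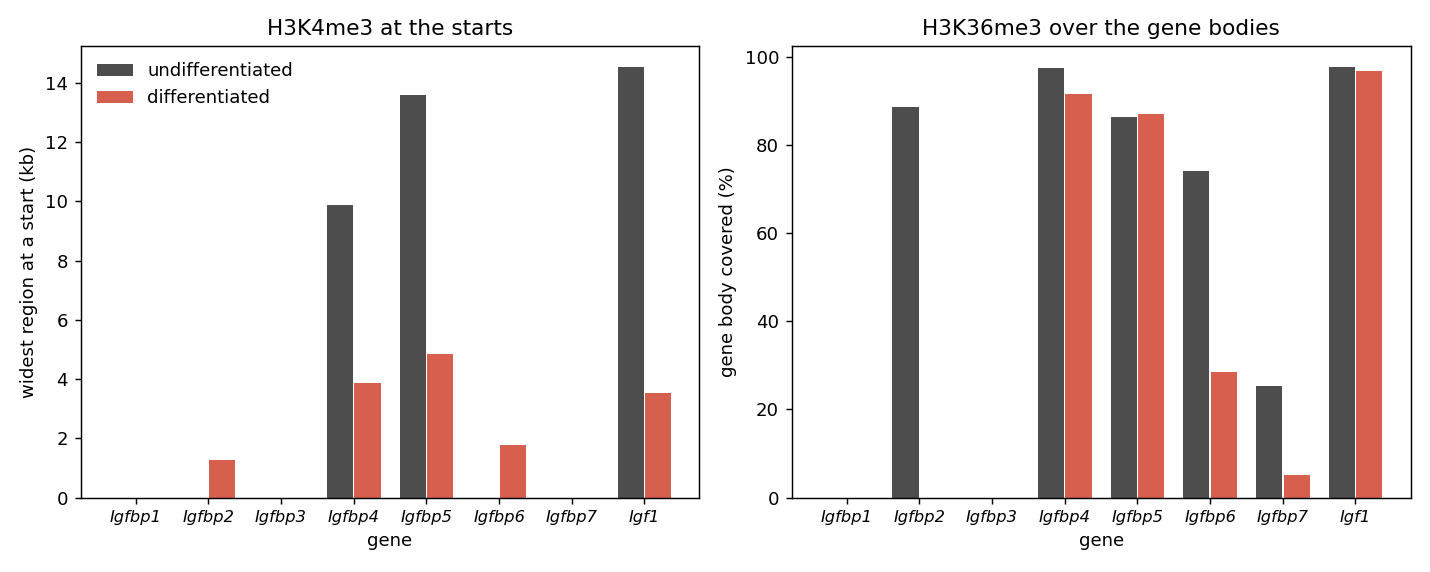
Left, width in kb of the widest H3K4me3 region covering an annotated start of each gene, with no bar where no start was covered. Right, percentage of each gene body covered by H3K36me3. Grey bars are undifferentiated and red bars differentiated cells, both with calcitriol and with 1 list each. The H3K36me3 bar of Igfbp2 is 88.79% in undifferentiated cells and missing in differentiated cells, and the H3K4me3 bars of Igfbp4, Igfbp5 and Igf1 are shorter in differentiated cells.

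The receptors, proteases and signalling proteins of the IGF pathway were counted in the same way, as 28 further genes. Of these, 19 (67.86%) had a VDR site within 100 kb in undifferentiated cells with calcitriol, where 40.8% of all coding genes had one, and 4 (14.29%) with vehicle, where 15.7% had. In differentiated cells 3 (10.71%) had one with calcitriol and 1 (3.571%) with vehicle, where 12.1% and 6.13% of coding genes had one. All but the first of these shares lay close to or below that of all coding genes. The adaptor gene Grb10 and the gene of the IGF binding protein protease Pappa2 had 14 VDR sites each in undifferentiated cells with calcitriol, more than any member. Igf2, the other growth factor, and its receptor gene Igf2r had 4 each, and Irs2 and Stat5a, which act below the receptors, had 3 each. Igf1r, the receptor for IGF-I, had 1. RXR with calcitriol was near 18 (64.29%) and 20 (71.43%) of the 28 genes in undifferentiated and differentiated cells, where 43.8% and 43.7% of coding genes had a site. C/EBPβ was near 22 (78.57%) in both states, where 65.8% and 61.1% had one, and RUNX2 near 25 (89.29%) and 18 (64.29%), where 59.6% and 46.5% had one. No test was made of these differences.

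Genes with site counts most like those of the members were ranked by the Bray-Curtis distance over the 12 transcription factor lists, leaving out genes within 200 kb. A distance of 0 means equal counts in each list. For Igfbp2 the nearest were Mkl1 (0.1296), Adam23 (0.1368), Gm3646 (0.1429), Fam129a (0.1489) and Sntb2 (0.1515). For Igfbp4 they were Pgs1 (0.1068), Cdkn2aipnl and Socs3 (0.1133 each) and Fbxl18 (0.12).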

How the data were processed

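ChIP-seq was made from MC3T3-E1 cells in 22 groups of 1 list each. The submitters' processing notes name Bowtie, HOMER and build mm9, without versions or thresholds. The design text states that biological replicates were made. In each list 70.43 to 99.64% of the regions had been merged from 2 peaks, per the region names. The score deposited by the authors is 0 in every transcription factor region, each 201 bp wide. It varies in the histone lists, with no stated meaning, and served only to drop the lowest 25% of histone regions in an alternative. The sample labels give H4K5Ac where the protocol text names H3K5Ac, and the sample labels were followed.

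Regions on chromosomes 1 to 19 and X were placed on NCBIM37 (mm9) with GENCODE vM1. An overlap of 1 bp or more made regions shared. Motifs were sought on either strand, in the 200 bp around each centre, DR3 with at most 1 mismatch, RUNX and C/EBP with 0. Shares carry exact Clopper-Pearson 95% intervals. Python 3.11.15, numpy 2.4.6, scipy 1.17.1 and pysam 0.24.0 were used, and counting, overlaps and motif search were tested on simulated data. With 1 list a group no test was made.

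The members and lists were chosen with earlier results of these data known. All 8 genes are named. VDR sites were described singly when called in both states, with vehicle or with a DR3, or when nearest to a start. The sites at -4.24 kb of Igfbp5, -84.9 kb of Igf1 and 94.5 and 52.8 kb of Igfbp4, the other C/EBPβ and RUNX2 sites, the gene-body coverage, the region widths and the H3K9Ac counts were chosen after the data were seen. Alternatives were the window, the start used, the nearest gene, the overlap rule, merged peaks, score, motif settings and leaving out a gene. One VDR site that the naming rule selects and 1 gene with counts like those of Igfbp4 are not reported here.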

Additional observations from a re-analysis of the deposited data

Results flagged for a closer look

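The number of RXR sites near Igfbp4 moved in opposite directions with calcitriol in the 2 culture states. The calcitriol list held 3 more sites than the vehicle list in undifferentiated cells (16 and 13), and the difference was -1 in differentiated cells (10 and 11). The whole RXR list went from 7834 regions with vehicle to 7591 with calcitriol in undifferentiated cells, and from 4815 to 8126 in differentiated cells. Those changes ran opposite to the ones near Igfbp4. Each state has 1 list per treatment, so the difference between the states was not tested. Sites listed with calcitriol only numbered 6 in undifferentiated and 2 in differentiated cells, and 3 were listed with vehicle only in each state.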

How the results depend on the processing

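No paired analysis was possible because each group has 1 list. Of 223 values under alternatives, 183 stayed within their limits, which were 1.5 times either way for a count and the 95% interval of the reported value for a share. With so few sites these intervals are wide, and shares inside them could still differ by more than 1.5 times. Within 50 kb the undifferentiated counts were 8 for VDR with calcitriol, 5 and 8 for RXR with vehicle and calcitriol, 23 for C/EBPβ and 9 for RUNX2, and the differentiated counts were 1, 7, 9, 20 and 12 in that order. There RXR kept 100.0%, C/EBPβ overlapped 62.5% and RUNX2 12.5% of VDR sites, and 25.0% of VDR sites were also listed with vehicle (9.091% within 100 kb). Within 200 kb VDR with vehicle had 4 sites in undifferentiated and 1 in differentiated cells. With only sites whose nearest coding start is a member's, the counts were 10, 5, 7, 17 and 5 in undifferentiated and 1, 7, 9, 18 and 8 in differentiated cells, RXR kept 100.0%, and 20% of VDR sites were also listed with vehicle. Without Igfbp4, undifferentiated counts were 1 and 13 for VDR with vehicle and calcitriol, 10 and 11 for RXR and 15 for RUNX2, differentiated counts were 2 for VDR with calcitriol and 9 and 13 for RXR, RXR kept 90.91%, 30.77% of VDR sites held a DR3 (18.18% with it) and RUNX2 overlapped 23.08% (36.36% with it). In 100 bp around the centre 4.545% of VDR sites held a DR3, and 9.091% did with no mismatch allowed. With centres within 500 bp C/EBPβ and RUNX2 each met 50.0% of VDR sites and RXR kept 81.48%. At outermost starts H3K36me3 covered 0 of the 8 genes in both states and H3K4me3 covered 3 in differentiated cells, as it did without the lowest 25% of scores (3). With a larger minimum overlap, regions merged from 2 peaks only, or without Igfbp2 or Igfbp5, values stayed within the limits above. Igfbp2 and Igfbp5 share most of their VDR sites, so leaving out either gene kept the shared sites. The pair was not left out together. No stricter threshold could be set for the transcription factors, whose scores are all 0. Depth is unknown.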
